A study of Mus musculus with 12 samples.

Results

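The genes described here encode UDP-glycosyltransferases of the liver, most of them glucuronosyltransferases, and glutathione transferases. These enzymes attach a sugar acid or other sugar, or the tripeptide glutathione, to drugs, steroids, bile acids and reactive by-products of metabolism. Members were chosen by gene symbol alone: every probe set with a single symbol in the Ugt1, Ugt2 or Ugt3 families, in the alpha, kappa, mu, omega, pi, theta or zeta classes of Gst, or in Mgst. Of 19937 genes with such a probe set, 32 qualified: 10 Ugt genes, 19 Gst genes and 3 Mgst genes. Where a gene had more than 1 probe set the one reading highest on average was used, which applied to Gstm3 alone. A further 8 probe sets that carry a family symbol together with other symbols were left out, so the Ugt1a genes, Gsta1, Gsta2, Gstp2, Ugt2a1 and Ugt2a2 were not analysed here.

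Liver RNA came from 12 male C57Bl/6 mice, 1 array per animal and 3 animals in each of 4 groups. The groups were wild-type mice given vehicle, wild-type mice given dexamethasone, Hdac6 knockout mice given vehicle and Hdac6 knockout mice given dexamethasone, a synthetic glucocorticoid. The drug was given by intraperitoneal injection at 1 mg/kg over 3 weeks, and all animals fed freely. The labels give no age, no identity of the vehicle and no account of how the Hdac6 allele was made, and the samples are whole liver rather than sorted hepatocytes. Levels are given as log2 intensities, on which 1 unit corresponds to a 2-fold change; a level of one probe set is not compared with that of another.

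In the conjugation phase of drug metabolism, a UDP-glucuronosyltransferase in the endoplasmic reticulum transfers glucuronic acid from UDP-glucuronate to its substrate, and the product leaves the cell through export pumps. Enzymes of the Ugt2b subfamily act mainly on steroids, bile acids and fatty acids, whereas Ugt3a enzymes use other UDP-sugars. Glutathione transferases join the thiol of glutathione to electrophiles; the cytosolic classes are soluble dimers, the kappa enzyme sits in mitochondria and peroxisomes, and the Mgst proteins are membrane-bound. Nuclear receptors such as CAR and PXR and the factor NRF2 are the textbook inducers of both families in liver.

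Hdac6 was lower in each knockout array than in each wild-type array, by 4.22-fold under vehicle (limma adjusted p = 3.70e-05) and 4.70-fold under dexamethasone (adjusted p = 1.53e-05). Arrays of a group correlated at 0.987 to 0.995 over the 17904 genes tested, and arrays of different groups at 0.974 to 0.995. Transcripts of the exocrine pancreas stood apart in 4 arrays, namely knockout vehicle 3, wild-type dexamethasone 3, and arrays 1 and 2 of the wild-type vehicle group. The mean level of 17 pancreas markers was 7.34 to 9.35 in those and 3.02 to 3.35 in the other 8, so drug effects past the threshold, and some other results, are also given without them. That refit keeps 1 wild-type vehicle array (array 3), 2 wild-type dexamethasone, 2 knockout vehicle and 3 knockout dexamethasone arrays; the lone wild-type vehicle array is assumed to vary like the other groups, which supply the estimate of spread. Mean levels of 9 hepatocyte markers, among them albumin and the apolipoproteins, lay within 12.23 and 12.36 on all arrays. Markers of Kupffer cells, the resident macrophages of the liver, averaged 6.58 to 7.31 in wild-type vehicle livers, 5.68 to 6.17 in wild-type dexamethasone livers, 6.45 to 6.79 in knockout vehicle livers and 6.35 to 7.19 in knockout dexamethasone livers (14 genes). In whole tissue, fewer cells of a type and less RNA per cell cannot be told apart.

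Few of the transferase genes passed the threshold for dexamethasone, all of them lower and by less than 2-fold. In wild-type livers and in the averaged effect the share called lower was close to that of all genes. In wild-type livers 2 of 32 members were lower at an adjusted p under 0.05 and 0 were higher: Gsta4, which clears the lipid peroxidation product 4-hydroxynonenal, and Gstt1, a theta-class enzyme that acts on halogenated compounds. The 2 make 6.25% of the members, against 11.5% of all 17904 genes tested in that comparison, or 6.95% counting lower genes alone and 4.57% counting higher ones. In knockout livers 0 of 32 passed, against 8.29% of all genes, and 3 members had an unadjusted p under 0.05 (limma; 9.38%, against 18.5% of all genes). With the drug effect averaged over both genotypes 3 of 32 passed, all lower (Gsta4, Gstm4 and Ugt2b35), against 17.2% of all genes and 9.94% counting lower genes alone.

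The size of the differences was bounded as well as their significance. In the averaged drug effect the 95% confidence intervals of all 32 members lay within a 2-fold change in either direction, as they did for 31 of 32 in each genotype alone (nominal intervals from the limma fit). The median difference of the members was -0.058 in the averaged effect, against 0.0016 over all genes, and their median absolute difference was 0.11 against 0.098; 25 of the 32 were below 0 (78.1%, against 49.5% of all genes). No member reached a 2-fold difference in any of the 7 comparisons. Of all genes 2.62% did so for the drug in wild-type livers, 2.36% in knockout livers and 2.26% in the averaged effect, 0.397% between genotypes under vehicle, 0.279% under dexamethasone and 0.218% averaged over treatments, and 0.614% for the difference of the drug effects. The members varied somewhat more between animals of a group than most genes, with a median residual SD of 0.196 against 0.143.

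**Figure D1:**
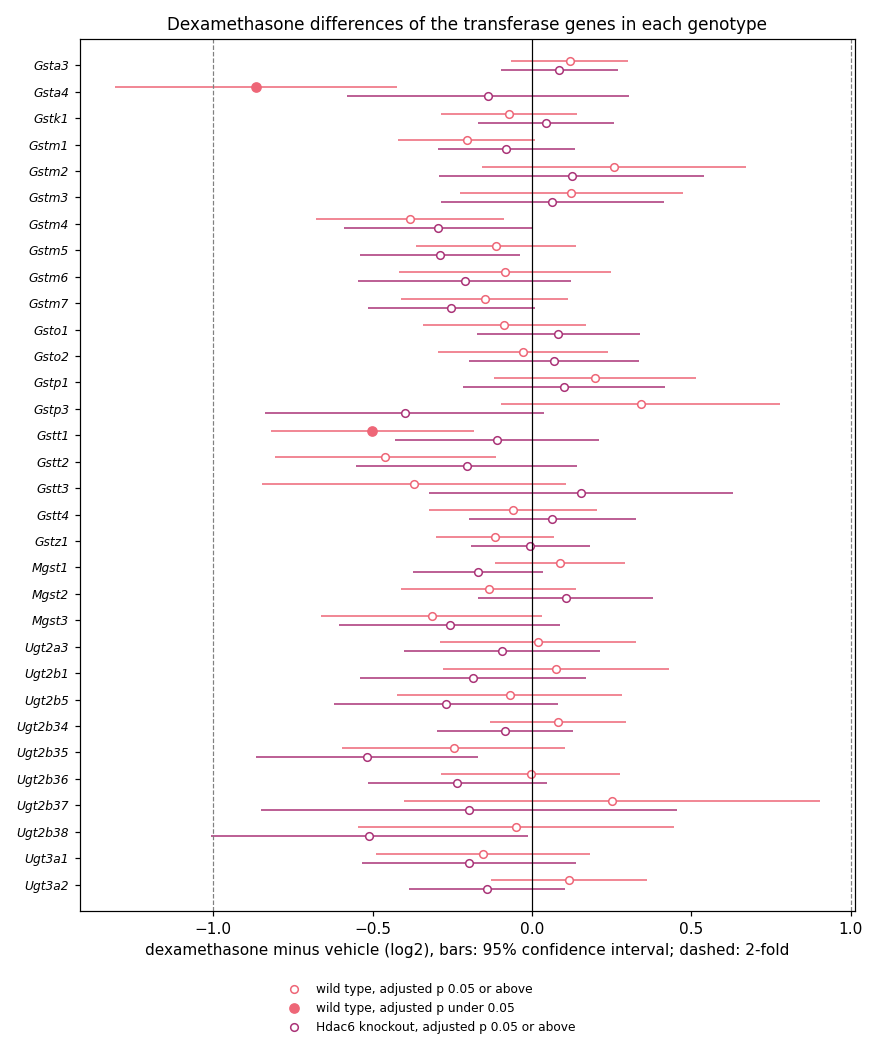
Difference between dexamethasone and vehicle (log2, horizontal axis) for the 32 transferase genes in wild-type and Hdac6 knockout livers, with 95% confidence intervals; filled points are below an adjusted p of 0.05 and dashed lines mark 2-fold. Gsta4 at -0.87 and Gstt1 at -0.50 in wild-type livers are the filled points, and most other intervals cross 0.

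The Ugt genes comprised Ugt2a3, 7 genes of the Ugt2b subfamily and both Ugt3a genes. The Ugt2b genes lie on chromosome 5, and the 100 bases that precede the annotated start of each are shown. Any part of these sequences in the deviations described further below was not tested. They are RefSeq sequences of mouse assembly GRCm38.p6, 5′ to 3′ in the sense of the transcript. Capitals mark AGGTCA, the half-site of nuclear receptors, and GTTANANNTTAAC, a pattern read off these windows after they were viewed.
Ugt2b1 (chr5:86926504-86926603, minus strand): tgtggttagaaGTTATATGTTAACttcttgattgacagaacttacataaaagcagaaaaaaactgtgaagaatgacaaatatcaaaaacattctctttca
Ugt2b34 (chr5:86906938-86907037, minus strand): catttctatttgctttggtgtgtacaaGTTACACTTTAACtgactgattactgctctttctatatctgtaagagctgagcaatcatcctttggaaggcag
Ugt2b35 (chr5:87000760-87000859, plus strand): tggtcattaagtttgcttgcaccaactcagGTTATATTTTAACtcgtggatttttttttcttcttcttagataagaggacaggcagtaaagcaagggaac
Ugt2b36 (chr5:87092556-87092655, minus strand): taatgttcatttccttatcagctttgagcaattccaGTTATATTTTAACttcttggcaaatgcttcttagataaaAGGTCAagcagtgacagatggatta
Ugt2b37 (chr5:87254789-87254888, minus strand): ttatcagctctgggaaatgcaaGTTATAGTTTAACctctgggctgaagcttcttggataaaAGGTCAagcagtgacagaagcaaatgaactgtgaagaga
Ugt2b38 (chr5:87424204-87424303, minus strand): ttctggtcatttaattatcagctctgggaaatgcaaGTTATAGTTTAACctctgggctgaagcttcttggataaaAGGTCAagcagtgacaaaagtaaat
Ugt2b5 (chr5:87140341-87140440, minus strand): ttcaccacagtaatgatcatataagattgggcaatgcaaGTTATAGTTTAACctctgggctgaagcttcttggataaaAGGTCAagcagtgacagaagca

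All 7 windows held GTTANANNTTAAC, which was fixed in advance because the pattern was read off them. The pattern began 61 to 89 bases before the start. Its layout, a pair of inverted half-sites, is that of the palindrome bound by HNF1, a hepatocyte transcription factor. The pattern occurred within 250 bases before the start, on either strand, in 21 of 27025 RefSeq windows (0.0777%). Of these 8 belong to members, namely the 7 Ugt2b genes it was read off and Ugt3a1, while the window of Ugt2a3 lacked it. The share of all windows is therefore no measure of enrichment in the members. AGGTCA stood between that pattern and the start in Ugt2b36, Ugt2b37, Ugt2b38 and Ugt2b5, 22 to 39 bases before the start, and 215 bases before it in Ugt2b35. The windows of Ugt2b37 and Ugt2b38 were 85.2% identical, those of Ugt2b38 and Ugt2b5 81.5% and those of Ugt2b37 and Ugt2b5 73.0%, so these genes' motif matches are shared sequence rather than separate observations. Gene copies this close can also share signal on an array, and the values of Ugt2b5, Ugt2b37 and Ugt2b38 are uncertain to that extent.

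Over the 29 members with a window, AGGTCA was present in 20.7%, against 13.8% of all windows. AGAACA, the glucocorticoid receptor half-site, was present in 10.3% against 16.2%, in Gstm1, Mgst3 and Ugt2b34. GTTAAT, the HNF1 half-site, was found in 10.3% against 6.52%, in Gsta3, Ugt2a3 and Ugt3a1 and in no Ugt2b window. TGACNNNGC, the core of the antioxidant response element bound by NRF2, was present in 10.3% against 10.1%, in Gsta3, Gstm5 and Mgst1. GCGTG, the core recognised by the dioxin receptor AhR, was present in 17.2% against 28.2%. These are matches of letters on both strands in a short window and do not show binding.

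Ugt2b35 was the only Ugt gene past the threshold in any comparison. Its levels were 9.30, 8.80 and 9.54 in wild-type vehicle livers, 8.93, 9.09 and 8.87 in wild-type dexamethasone livers, 9.42, 9.83 and 9.58 in knockout vehicle livers and 9.18, 9.06 and 9.03 in knockout dexamethasone livers. The knockout groups did not overlap, every treated liver being lower, while the wild-type vehicle array 2 lay below all 3 wild-type treated livers. Averaged over genotypes Ugt2b35 fell by 0.38 ± 0.11 (SE) on the log2 scale, or 1.30-fold (limma adjusted p = 0.0343). The call was lost on leaving out any one of 8 arrays (wild-type vehicle 1 or 3, wild-type dexamethasone 1 or 3, knockout vehicle 2 or 3, knockout dexamethasone 2 or 3; adjusted p 0.0602 to 0.0865). Without the 4 arrays with pancreas transcripts the difference was -0.53 ± 0.11 (adjusted p = 0.0194), with wild-type vehicle array 3, the highest of its group, as the only wild-type control.

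In the knockout alone Ugt2b35 differed by -0.52 ± 0.16 (adjusted p = 0.0712). In wild-type livers alone the difference was -0.25 ± 0.16 (adjusted p = 0.406), and the difference between these effects was -0.27 ± 0.23 (adjusted p = 0.897). Without wild-type vehicle array 2 the wild-type difference was -0.45 ± 0.13 and passed (adjusted p = 0.0479), and the difference between the effects was -0.064 ± 0.175. Without wild-type vehicle array 3 the wild-type difference was -0.083 ± 0.156 (adjusted p = 0.814). The knockout value passed the threshold on leaving out wild-type vehicle 2 (adjusted p = 0.0156) or wild-type vehicle 3 (0.0396), arrays that enter this comparison only through the shared estimate of spread. Without the 4 arrays with pancreas transcripts Ugt2b35 differed by -0.53 ± 0.18 in wild-type livers (adjusted p = 0.202, 1 control array) and by -0.53 ± 0.14 in the knockout (adjusted p = 0.0575).

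Ugt2b1, the Ugt2b member whose probe set read highest, stood at 11.20, 10.81 and 11.57 in wild-type vehicle livers, 11.47, 11.07 and 11.26 with dexamethasone, 11.30, 11.53 and 11.29 in knockout vehicle livers and 11.12, 11.14 and 11.31 in treated knockouts. Its groups overlapped throughout, and the wild-type vehicle livers alone spanned the range of the other 9. Ugt2a3, which also glucuronidates bile acids, gave 10.98, 10.45 and 10.93, then 10.94, 10.75 and 10.73 in the wild-type groups, and 10.93, 10.88 and 10.98, then 10.83, 10.63 and 11.06 in the knockout groups. Its wild-type vehicle array 2 was again the lowest of the 12. Ugt3a2 gave 9.83, 9.58 and 9.83 in wild-type vehicle livers, 9.91, 9.70 and 9.99 with dexamethasone, 10.12, 10.05 and 9.94 in knockout vehicle livers and 9.95, 9.72 and 10.02 in treated knockouts. Its knockout vehicle livers all lay above the wild-type vehicle livers, by 0.29 ± 0.11 on average, which did not pass the threshold (adjusted p = 0.633).

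The other Ugt genes are given as means ± SD (n = 3) in the order wild-type vehicle, wild-type dexamethasone, knockout vehicle, knockout dexamethasone. Ugt2b5 was at 10.88 ± 0.22, 10.81 ± 0.18, 11.06 ± 0.25 and 10.79 ± 0.26. Ugt2b34 was at 10.68 ± 0.14, 10.76 ± 0.12, 10.80 ± 0.09 and 10.72 ± 0.06. Ugt2b36 was at 11.21 ± 0.28, 11.21 ± 0.07, 11.38 ± 0.14 and 11.15 ± 0.10. In each of these 3 genes the knockout vehicle group had the highest mean, and none passed in any comparison. Ugt2b37 was at 4.82 ± 0.50, 5.07 ± 0.09, 5.42 ± 0.37 and 5.22 ± 0.67, the widest spread within groups of any member. Ugt2b38 was at 8.29 ± 0.32, 8.24 ± 0.24, 8.78 ± 0.45 and 8.27 ± 0.34. Ugt3a1 was at 9.14 ± 0.31, 8.98 ± 0.27, 9.35 ± 0.08 and 9.15 ± 0.11, and none of the 3 passed in any comparison.

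**Figure D2:**
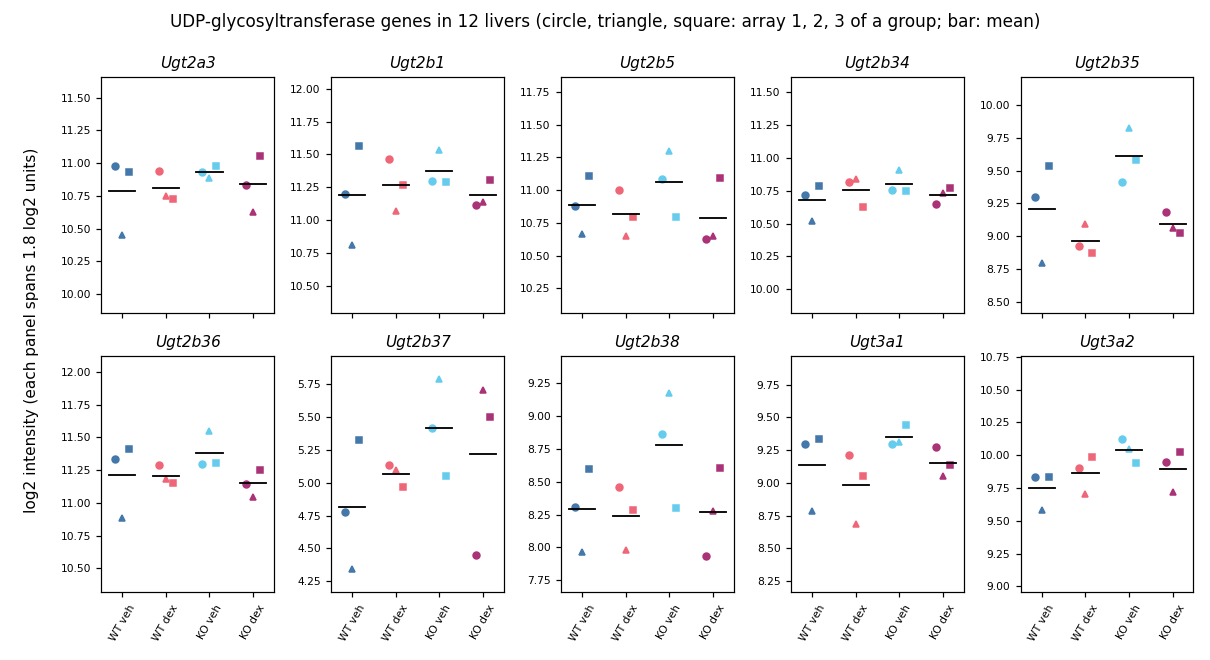
Level (log2 intensity, vertical axis, the same span in each panel) of the 10 Ugt genes in every liver; marker shapes give the array number within a group and bars the group means. The triangle of the wild-type vehicle group, array 2, is the lowest of its group in all 10 panels.

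On some arrays the Ugt genes deviated from their group in the same direction. In wild-type vehicle array 2 all 10 were the lowest of their group, against 35.8% of all genes on that array, with deviations from the group mean of -0.48 to -0.16 and a median of -0.33. Wild-type vehicle array 3 was the highest of the group in 9 of the 10, against 32.7% of all genes. The glutathione transferases did not share this pattern on wild-type vehicle array 2. There they were the highest of the group in 14 of 22 genes, against 35.1% of all genes, with a median deviation of 0.081. They leaned 1 way on other arrays too. On wild-type dexamethasone array 1 they were lowest in 17 and highest in 2, where 33.3% of all genes were lowest. On knockout vehicle array 2 they were lowest in 14 and highest in 5, where 33.7% of all genes were lowest. On knockout dexamethasone array 1 they were highest in 14 and lowest in 3, where 31.1% of all genes were highest. Wild-type vehicle array 2 also carried pancreas transcripts (marker mean 9.21). On the other arrays that carried them, the median Ugt deviation was 0.063 in wild-type vehicle array 1 (marker mean 9.35), -0.037 in wild-type dexamethasone array 3 (7.34) and -0.080 in knockout vehicle array 3 (8.08). Knockout vehicle array 2 (3.09) had a median Ugt deviation of 0.16 and was highest in 7 of 10. Ugt genes were also mostly highest on wild-type dexamethasone array 1 (7 highest, 0 lowest, median 0.11) and knockout dexamethasone array 3 (7 highest, 1 lowest, median 0.12). The shares of all genes highest there were 33.5% and 36.1%. On knockout vehicle array 3 they were lowest in 6 and highest in 2, against 31.5% of all genes lowest. Signs were more mixed elsewhere: they were lowest in 3 and highest in 1 in knockout vehicle array 1, and lowest in 5 and highest in 2 in wild-type dexamethasone array 2. In knockout dexamethasone array 1 the Ugt deviations ran from -0.77 to 0.12. Joint movement over the 12 arrays was not tested, nor was any part of the pancreas transcripts in these deviations.

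**Figure D3:**
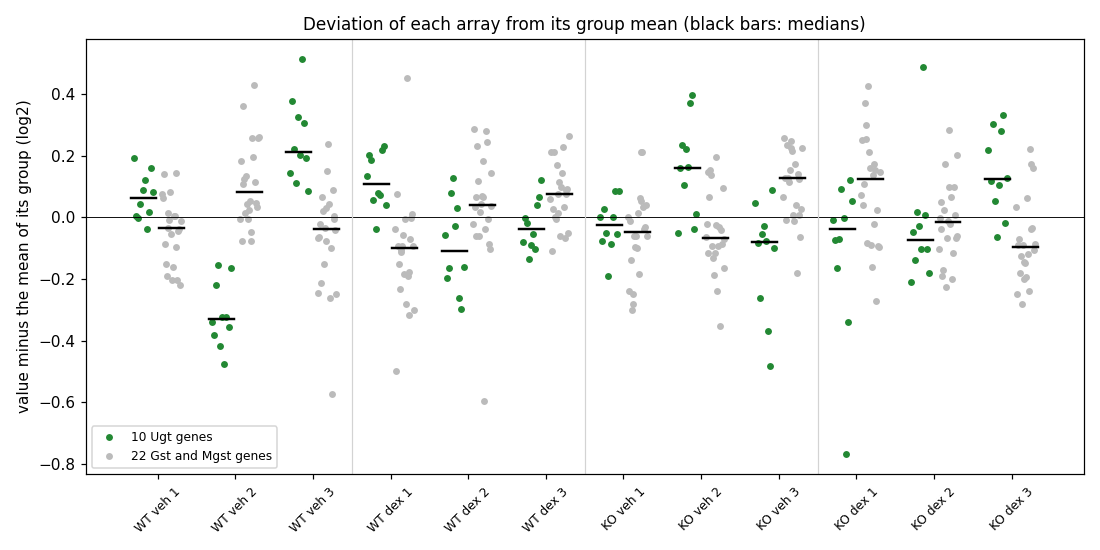
Deviation of each array from the mean of its group (log2, vertical axis) for the 10 Ugt genes and the 22 Gst and Mgst genes, 1 point per gene, with medians as bars. The Ugt median lies at -0.33 in wild-type vehicle array 2 while that of the glutathione transferases lies at 0.081.

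Under vehicle all 10 Ugt genes had higher means in the knockout than in the wild type, with a median difference of 0.20 and a range of 0.13 to 0.60, where 50.1% of all genes were above 0; 0 of 10 passed the threshold, against 0.101% of all genes. In the knockout all 10 were below 0 under dexamethasone (median -0.20, range -0.52 to -0.084), where 52.4% of all genes were; in wild-type livers 5 were below and 5 above (median 0.0071), where 47.9% of all genes were below. The difference of the drug effects was below 0 for all 10 (median -0.24), where 49.6% of all genes were. The genotype comparison under vehicle shares the knockout vehicle arrays with the drug comparison in the knockout, and the difference of the drug effects contains both, so these are not separate observations; 0 of 10 passed in any of the 3. Under dexamethasone the genotypes differed by a median of 0.031, with 6 genes above 0 and 4 below, where 49% of all genes were above; that median ran from -0.072 to 0.083 over single arrays left out.

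Leaving out wild-type vehicle array 2 brought the median genotype difference under vehicle to 0.057, with 8 genes above 0 and 2 below. The difference of the drug effects then had a median of -0.080, with 8 below 0. Leaving out wild-type vehicle array 3 instead brought the median under vehicle to 0.32, with all 10 above 0, and leaving out knockout vehicle array 2 brought that of the difference of effects to -0.15. The median drug effect in wild-type livers was -0.16, with 7 below 0, without wild-type vehicle array 2, and 0.10, with 8 above 0, without array 3. In the knockout it stayed between -0.27 and -0.14 over single arrays left out. Without the 4 arrays with pancreas transcripts the median under vehicle was 0.063, with 7 above 0, and that of the difference of effects -0.10, with 7 below 0. The drug effect then had a median of -0.25 in each genotype, with 9 of 10 below 0 in wild-type livers and 10 of 10 in the knockout. The wild-type vehicle group is then array 3 alone, on which 9 of the 10 Ugt genes were the highest of that group. Without wild-type vehicle array 2, the largest genotype differences under vehicle were those of Ugt2b38 (0.33 ± 0.25) and Ugt2b37 (0.36 ± 0.32). Each was within 2 standard errors of 0.

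**Figure D4:**
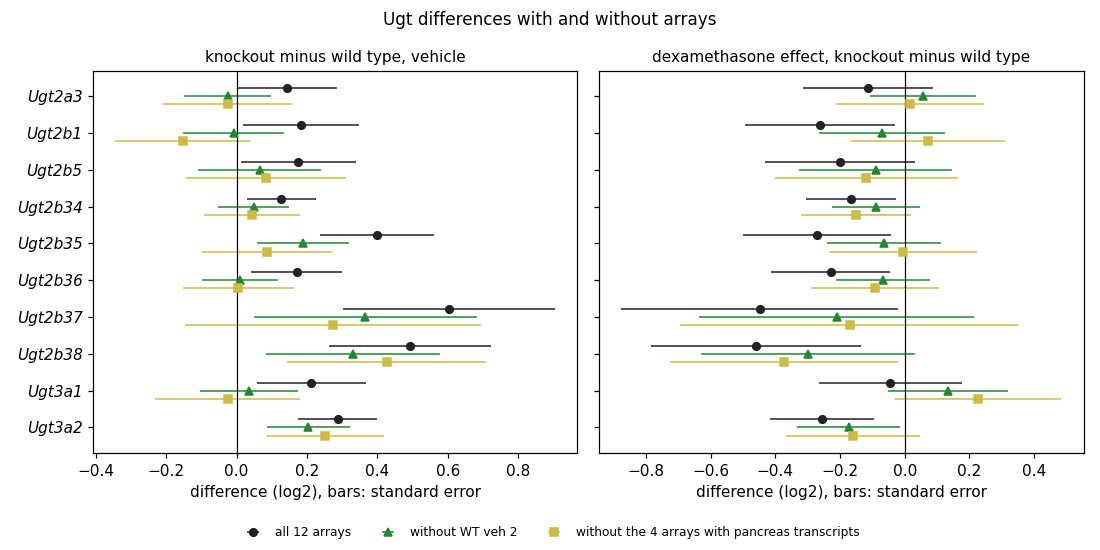
Differences of the 10 Ugt genes (log2, horizontal axis, bars are standard errors) between knockout and wild type under vehicle, and of the drug effect between genotypes, fitted with all 12 arrays, without wild-type vehicle array 2 and without the 4 arrays with pancreas transcripts, which leaves 1 wild-type vehicle array. The median under vehicle goes from 0.20 to 0.057 and 0.063, and that of the drug effect from -0.24 to -0.080 and -0.10.

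Among the alpha-class glutathione transferases, Gsta4 gave the largest response of any member. Its levels were 9.55, 9.67 and 9.25 in wild-type vehicle livers, 8.13, 8.91 and 8.84 in wild-type dexamethasone livers, 9.06, 9.27 and 9.55 in knockout vehicle livers and 9.41, 9.15 and 8.91 in knockout dexamethasone livers. Every treated wild-type liver lay below every untreated one, array 1 furthest, while the knockout groups overlapped. In wild-type livers Gsta4 fell by 0.87 ± 0.20, or 1.82-fold (limma adjusted p = 0.0144). In the knockout the difference was -0.14 ± 0.20 (adjusted p = 0.834), but the difference between the effects, 0.73 ± 0.29, did not pass (adjusted p = 0.754; 0 genes of 17904 passed, and 1109 had an unadjusted p under 0.05).

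The wild-type call for Gsta4 was lost without wild-type vehicle 2 (-0.77, adjusted p = 0.0555), without wild-type dexamethasone 1 (-0.62, adjusted p = 0.0522) and without the 4 arrays with pancreas transcripts (-0.73 ± 0.30, adjusted p = 0.296), a refit of 2 treated arrays against wild-type vehicle array 3 alone. Averaged over genotypes Gsta4 fell by 0.50 ± 0.14 (adjusted p = 0.0288), a call lost on leaving out any one of 7 arrays (wild-type vehicle 1 or 2, wild-type dexamethasone 1, knockout vehicle 2 or 3, knockout dexamethasone 2 or 3; adjusted p 0.0515 to 0.0766). Without the 4 arrays with pancreas transcripts it was -0.37 ± 0.19 (adjusted p = 0.311). In the same wild-type comparison 10 of 14 Kupffer cell markers were lower and 1 was higher, against 6.95% and 4.57% of all genes. Of 12 endothelial markers 6 were lower and 1 higher, and of 12 stellate cell markers 2 and 1. Of 9 lymphocyte markers 3 were lower and 0 higher, and of 9 hepatocyte markers 0 passed. In the knockout 0 of the 14 Kupffer cell markers were lower and 1 was higher, where 8.29% of all genes passed. The Kupffer median was 0.0035 there, against -0.88 in wild-type livers. Of the endothelial markers 4 were lower and 1 higher there, of the stellate cell markers 1 and 1, and of the lymphocyte markers 0 and 0. For the difference of the effects 0 of 14 Kupffer cell markers passed, as did 0 of all genes. The part of any of these cells in the Gsta4 and Gstt1 values was not tested.

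Gsta3, the other alpha-class member, gave 11.42, 11.34 and 11.28 in wild-type vehicle livers, 11.42, 11.44 and 11.52 with dexamethasone, 11.31, 11.25 and 11.37 in knockout vehicle livers and 11.47, 11.29 and 11.43 in treated knockouts. In mice this enzyme detoxifies the epoxide of aflatoxin. The wild-type groups touched without crossing, and the difference of 0.12 ± 0.08 did not pass (adjusted p = 0.452).

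Of the subfamilies with 3 or more genes, the theta class had the lowest median drug effect in wild-type livers, -0.42 over 4 genes, against 0.0096 for all genes. In the knockout its median was -0.023, with 2 genes below 0 and 2 above, against -0.0090 for all genes. Averaged over genotypes it was -0.21, with 3 genes below 0 and 1 above. Gstt1 was measured at 9.542, 9.795 and 9.275 in wild-type vehicle livers, 8.848, 8.998 and 9.266 with dexamethasone, 9.415, 9.268 and 9.402 in knockout vehicle livers and 9.426, 9.317 and 9.013 in treated knockouts. The wild-type groups met at array 3 of each without crossing, and the knockout groups overlapped. Gstt1 fell by 0.50 ± 0.15 in wild-type livers, or 1.41-fold (adjusted p = 0.0446), against -0.11 ± 0.15 in the knockout (adjusted p = 0.810), with a difference of effects of 0.39 ± 0.21 (adjusted p = 0.828). The call was lost without any one of 8 arrays (wild-type vehicle 1 or 2, wild-type dexamethasone 1 or 2, any knockout vehicle array, or knockout dexamethasone 2; adjusted p 0.0557 to 0.161) and without the 4 arrays with pancreas transcripts (-0.35 ± 0.18, adjusted p = 0.431), when wild-type vehicle array 3, the lowest of its group, is the only control. Averaged over genotypes Gstt1 passed only on leaving out wild-type vehicle 3, wild-type dexamethasone 3 or knockout dexamethasone 1 (adjusted p 0.0240, 0.0331 and 0.0469).

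In the same order of groups Gstt2 was at 7.87 ± 0.17, 7.41 ± 0.30, 7.55 ± 0.20 and 7.35 ± 0.21. Its wild-type groups did not overlap either, with a difference of -0.46 ± 0.16 (adjusted p = 0.0884) that passed when each array was centred on its median (adjusted p = 0.0427) or without wild-type dexamethasone array 2 (-0.60 ± 0.16, adjusted p = 0.0443). Gstt3 was at 7.50 ± 0.52, 7.13 ± 0.22, 7.13 ± 0.31 and 7.28 ± 0.14, and did not pass in any comparison with all arrays; without wild-type vehicle array 3 it differed by -0.66 ± 0.18 in wild-type livers (adjusted p = 0.0365). Gstt4 was at 2.42 ± 0.18, 2.36 ± 0.07, 2.23 ± 0.04 and 2.29 ± 0.24, close to the 20th percentile of the arrays, so a difference in it could hardly be measured.

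Among the mu-class enzymes, the largest cytosolic group here with 7 genes, Gstm4 passed in the averaged effect. Its levels were 9.221, 9.269 and 9.273 in wild-type vehicle livers, 8.760, 8.991 and 8.865 with dexamethasone, 9.019, 9.405 and 9.383 in knockout vehicle livers and 9.231, 8.999 and 8.695 in treated knockouts. All treated wild-type livers were lower than all untreated ones, and in the knockout array 1 of each group broke the separation. Averaged over genotypes Gstm4 fell by 0.34 ± 0.10, or 1.26-fold (adjusted p = 0.0273). The separate values were alike in size, -0.38 ± 0.14 in the wild type (adjusted p = 0.0972) and -0.29 ± 0.14 in the knockout (adjusted p = 0.274). The call was lost without any one of 6 arrays (wild-type vehicle 3, wild-type dexamethasone 1 or 3, knockout vehicle 2 or 3, knockout dexamethasone 3; adjusted p 0.0514 to 0.0705) and without the 4 arrays with pancreas transcripts (-0.32 ± 0.15, adjusted p = 0.254; 1 wild-type vehicle array).

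Gstm1, the mu-class member whose probe set read highest, was at 11.38, 11.58 and 11.45 in wild-type vehicle livers, 11.17, 11.33 and 11.29 with dexamethasone, 11.30, 11.58 and 11.43 in knockout vehicle livers and 11.46, 11.32 and 11.28 in treated knockouts. The wild-type groups did not overlap, but the difference of -0.21 ± 0.10 did not pass (adjusted p = 0.234). As group means Gstm2 was at 7.52 ± 0.32, 7.78 ± 0.19, 7.24 ± 0.27 and 7.36 ± 0.32. Gstm3 was at 10.43 ± 0.17, 10.55 ± 0.23, 10.49 ± 0.24 and 10.55 ± 0.26. Both had higher means with dexamethasone in each genotype, within 2 standard errors. Gstm5 was at 6.09 ± 0.14, 5.98 ± 0.15, 6.13 ± 0.13 and 5.84 ± 0.15. Gstm6 was at 8.72 ± 0.04, 8.64 ± 0.08, 8.79 ± 0.20 and 8.58 ± 0.37. Gstm7 was at 8.50 ± 0.08, 8.35 ± 0.05, 8.47 ± 0.22 and 8.22 ± 0.19. These 3 had lower means with the drug in each genotype, and none passed with all arrays; Gstm6 passed in the knockout without knockout dexamethasone array 1 (-0.42 ± 0.12, adjusted p = 0.0454). Mu-class genes are close copies of each other, and signal shared between their probe sets cannot be separated from these values.

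In the pi class, Gstp1 is the abundant hepatic form in male mice. Its levels were 12.27, 12.36 and 12.67 in wild-type vehicle livers, 12.35, 12.81 and 12.73 with dexamethasone, 12.17, 12.54 and 12.34 in knockout vehicle livers and 12.29, 12.55 and 12.52 in treated knockouts. All groups overlapped, with differences under dexamethasone of 0.20 ± 0.15 and 0.10 ± 0.15 in the 2 genotypes.

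Gstp3, singled out after its values were seen, had the largest genotype difference of the members. It was measured at 6.48, 6.42 and 6.52 in wild-type vehicle livers, 7.26, 6.22 and 6.96 with dexamethasone, 6.41, 6.10 and 6.51 in knockout vehicle livers and 6.08, 5.92 and 5.82 in treated knockouts. Under dexamethasone every knockout liver lay below every wild-type liver, although the treated wild-type livers spread over more than 1 log2 unit. The difference was -0.87 ± 0.20, or 1.83-fold lower in the knockout, and did not pass over all genes (adjusted p = 0.199, where 0.0279% of all genes passed). Without wild-type dexamethasone array 2, the lowest of its group, it was -1.17 ± 0.14 and passed (adjusted p = 0.0097). Over single arrays left out the difference ran from -1.17 to -0.65, and it passed in that refit alone. Without the 4 arrays with pancreas transcripts it was -0.80 ± 0.26 (adjusted p = 0.593). The drug effects, 0.34 ± 0.20 in the wild type and -0.40 ± 0.20 in the knockout, were opposite in sign, and their difference of -0.74 ± 0.29 did not pass (adjusted p = 0.754). The wild-type effect was 0.64 ± 0.14 without wild-type dexamethasone array 2 (adjusted p = 0.0145), 0.12 ± 0.19 without array 1 (adjusted p = 0.787) and 0.23 ± 0.34 without the 4 arrays with pancreas transcripts (adjusted p = 0.852; 1 control array).

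**Figure D5:**
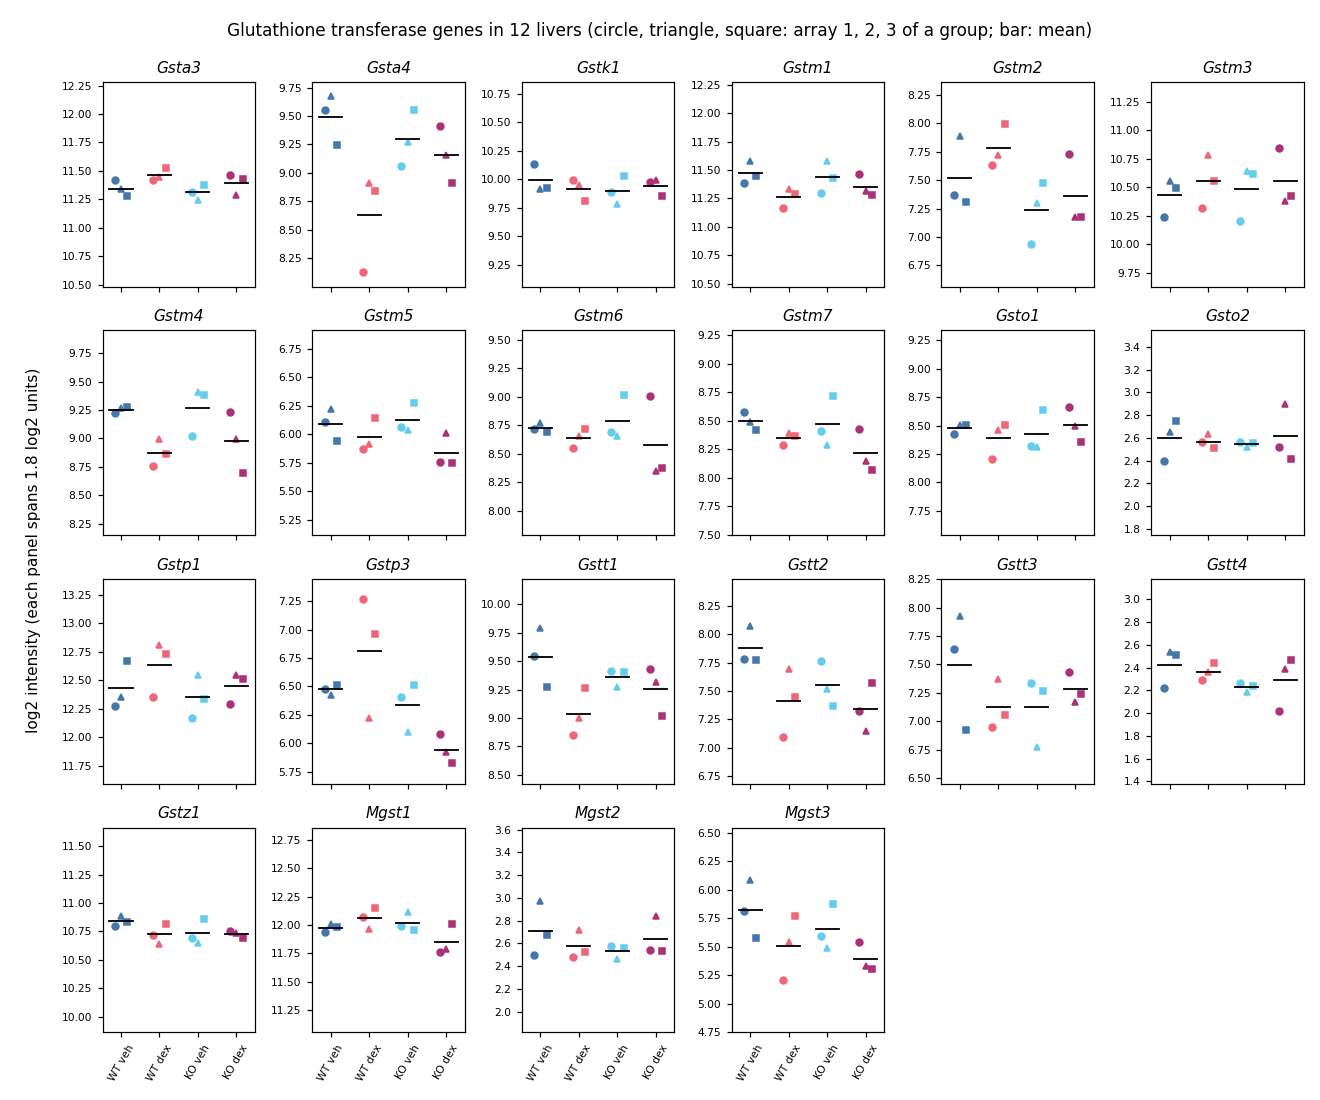
Level (log2 intensity, vertical axis, the same span in each panel) of the 22 Gst and Mgst genes in every liver; marker shapes give the array number within a group and bars the group means. Gsta4 and Gstt1 are lower in the treated wild-type livers, and Gstp3 is lowest in the 3 treated knockout livers.

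The single-gene classes showed narrow ranges. Gstk1, the kappa enzyme, was at 10.13, 9.91 and 9.93 in wild-type vehicle livers, 9.99, 9.95 and 9.81 with dexamethasone, 9.89, 9.78 and 10.02 in knockout vehicle livers and 9.98, 9.99 and 9.85 in treated knockouts. Gstz1, which doubles as maleylacetoacetate isomerase in tyrosine breakdown, was at 10.80, 10.89 and 10.84, then 10.72, 10.64 and 10.81 in the wild-type groups, and 10.69, 10.65 and 10.86, then 10.75, 10.74 and 10.69 in the knockout groups. Groups overlapped for both, and the whole range over 12 livers was 0.35 for Gstk1 and 0.25 for Gstz1.

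In the omega class, whose enzymes reduce mixed disulphides and methylated arsenic, Gsto1 was at 8.42, 8.50 and 8.51 in wild-type vehicle livers, 8.21, 8.46 and 8.51 with dexamethasone, 8.32, 8.31 and 8.64 in knockout vehicle livers and 8.66, 8.49 and 8.36 in treated knockouts. Gsto2 was at 2.59 ± 0.18, 2.57 ± 0.06, 2.54 ± 0.02 and 2.61 ± 0.25, near the 20th percentile of the arrays. Neither separated the groups.

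Of the membrane-bound enzymes, Mgst1 was at 11.94, 12.01 and 11.98 in wild-type vehicle livers, 12.07, 11.96 and 12.15 with dexamethasone, 11.99, 12.12 and 11.96 in knockout vehicle livers and 11.76, 11.79 and 12.01 in treated knockouts. Its treated livers differed between genotypes by -0.21 ± 0.09, which did not pass (adjusted p = 0.559). Mgst2, which can form leukotriene C4, was at 2.71 ± 0.24, 2.58 ± 0.13, 2.53 ± 0.06 and 2.64 ± 0.17, also near the 20th percentile. Mgst3 was at 5.82 ± 0.26, 5.51 ± 0.28, 5.65 ± 0.20 and 5.39 ± 0.13, with an averaged drug effect of -0.29 ± 0.11 (adjusted p = 0.113).

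The separation of groups was also counted. In wild-type livers 7 of 32 members had treated and untreated groups that did not overlap (21.9%, against 27% of all genes): Gsta4, Gstm1, Gstm4, Gstm7, Gstt1 and Gstt2 lower and Gsta3 higher. In the knockout 5 did so, all lower (15.6%, against 24.3%): Gstm5, Gstp3, Ugt2b35, Ugt2b36 and Ugt3a1. Counting lower genes alone, the shares were 18.8% of members against 14.5% of all genes in the wild type, and 15.6% against 12.6% in the knockout. Between genotypes 2 members separated under vehicle (6.25%, against 11.8%), Gstt2 lower and Ugt3a2 higher in the knockout, and Gstp3 alone under dexamethasone (3.12%, against 14%).

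No member passed the threshold between genotypes. The counts were 0 of 32 under vehicle, where 0.101% of all genes passed, 0 of 32 under dexamethasone, where 0.0279% passed, and 0 of 32 in the genotype effect averaged over treatments, where 0.0503% passed. At an unadjusted p under 0.05 (limma) the members numbered 2 (6.25%, against 7.19% of all genes), 4 (12.5%, against 8.75%) and 3 (9.38%, against 10%), and for the difference of the drug effects 2 (6.25%, against 6.19%). In the averaged genotype effect all 32 nominal 95% intervals lay within 2-fold, and for the difference of drug effects 27 of 32 did, so larger differences of response are not bounded for the remaining members.

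The genes that supply, use or dispose of the conjugates responded in part, as measured by the drug effect averaged over genotypes, in which 17.2% of all genes passed, 7.29% higher and 9.94% lower. Of 7 genes that make UDP-glucuronate or remove glucuronide 1 rose, Pgm2 (0.39 ± 0.09), a phosphoglucomutase of sugar supply, and the list's median was 0.035. Of 14 genes of glutathione synthesis, reduction and breakdown 2 rose and 5 fell, with a median of -0.15. Oplah, which recycles oxoproline to glutamate, rose by 0.55 ± 0.09, and Gss, glutathione synthetase, fell by 0.41 ± 0.09. Chac1 (0.58 ± 0.14) and Chac2 (-0.52 ± 0.11), which both degrade glutathione, changed in opposite directions.

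Among 20 enzymes outside the transferases that use glutathione, 3 rose and 3 fell, with a median of -0.032. Glrx, glutaredoxin, rose by 0.82 ± 0.11 and Gpx3, a secreted glutathione peroxidase, by 0.38 ± 0.09. Clic1 (-0.84 ± 0.11) and Clic4 (0.45 ± 0.08), proteins of the chloride channel family with a glutathione transferase fold, changed in opposite directions. Of 15 genes of conjugate export and mercapturate formation 0 rose and 4 fell, with a median of -0.11: the aminoacylase Acy3 (-0.39 ± 0.10), the acetyltransferase Nat8 (-0.68 ± 0.19), and the export pumps Abcc6 (-0.33 ± 0.08) and Abcc3 (-0.34 ± 0.10).

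Other conjugating enzymes included the strongest responses near the transferases. Of 11 measured sulfotransferase and sulfate donor genes 2 rose and 2 fell, with a median of -0.060. Sult1e1, the oestrogen sulfotransferase, rose by 6.52 ± 0.16 and Sult1d1 by 1.83 ± 0.14, whereas Sult1c2 (-0.62 ± 0.09) and Papss1 (-0.56 ± 0.10), which makes the sulfate donor, fell. Of 13 further conjugation genes 2 rose and 3 fell, with a median of -0.11; Nnmt, nicotinamide methyltransferase, rose by 1.16 ± 0.12, and Baat (-0.40 ± 0.08), the bile acid amidating enzyme, Ephx1 (-0.32 ± 0.08) and Nat2 (-0.35 ± 0.09) fell.

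The last lists hold the regulators and other targets usually named beside these families. Of 19 transcription factors of the xenobiotic response 4 rose and 4 fell, with a median of 0.049: Cebpb (1.18 ± 0.10) and Nr1i2, which encodes PXR (0.73 ± 0.07), rose, and Cebpa (-0.82 ± 0.13) and Nfe2l2, which encodes NRF2 (-0.64 ± 0.08), fell. Of 9 textbook targets of CAR and PXR 4 rose and 4 fell, with a median of -0.0064: Cyp2b10 (7.19 ± 0.41), Cyp2b9 (0.60 ± 0.11) and Cyp3a13 (0.41 ± 0.09) rose, and Cyp2c55 (-1.17 ± 0.20) fell. Of 7 targets of AhR 1 rose, Tiparp (1.37 ± 0.25), with a median of 0.018. Of 14 targets of NRF2 outside the transferases 0 rose and 8 fell, with a median of -0.26: Osgin1 by 3.36 ± 0.12, Hmox1 by 0.72 ± 0.16, Srxn1 by 0.33 ± 0.08 and Txnrd1 by 0.28 ± 0.06 on the log2 scale. Several genes of that list, among them Abcc3, Ephx1 and Nqo1, also stand on lists above, so the counts of the lists overlap and are not separate observations. The 3 transferases whose window held the NRF2 core, Gsta3 (0.10 ± 0.06), Gstm5 (-0.20 ± 0.08) and Mgst1 (-0.041 ± 0.066), did not pass.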

How the data were processed

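RNA from 12 livers was hybridised to Affymetrix whole-transcript arrays. The deposited values are log2 probe set intensities; per the submitters' processing notes the authors used affy under R 2.10.0, and the background correction, normalisation and summarisation are not given in the sources used here. Depth does not apply to arrays, and their number limits the precision. Symbols came from GEO's platform annotation: of 34760 probe sets 21640 carried 1 symbol, covering 19937 genes, and all 32 members were found in RefSeq with 0 symbols changed. Genes above the 20th percentile of an array in at least 3 arrays were kept, 17904 in all, among them every member.

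Group means over all 12 arrays were fitted with limma 3.58.1 (lmFit and eBayes; R 4.3.3), with 8 residual and 5.07 prior degrees of freedom. Benjamini-Hochberg adjustment ran over all genes in each of 7 comparisons, at a threshold of 0.05; every adjusted p in the text is from this fit or its refits. The fit was run on simulated data with independent noise for each gene, for the drug effect in wild-type livers alone. Only the median estimated difference was checked. Deviations shared between genes on an array were not simulated, so the calls above were not tested by it. Promoter windows are from RefSeq, GRCm38.p6, and matched 29 of 32 members.

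The members and lists were chosen with earlier results of these data known. Values per array are given for members past the threshold in any comparison and for the member with the highest mean of each subfamily, and from each list up to 4 genes with the smallest p past the threshold in the averaged drug effect. The lists, with genes measured, were those described in the report and markers of hepatocytes (9), exocrine pancreas (17), bile duct cells (8), Kupffer cells (14), endothelial cells (12), stellate cells (12), lymphocytes (9), and erythroid cells and neutrophils (8). Arrays counted as carrying pancreas transcripts were at least 2 log2 units above the others in the pancreas marker mean. Alternatives were other filters, quantile normalisation, centring of arrays, array weights, a replicate block, all probe sets of a gene, the 2 groups alone, the pancreas marker mean as a covariate, and leaving out arrays.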

Additional observations from a re-analysis of the deposited data

How the results depend on the processing

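Of 4811 member values under the alternatives, 4483 kept their direction and their side of the threshold, 43 lost a call, 21 gained one, 0 called values changed sign, and 264 uncalled values did. The count in wild-type livers, 2 with all arrays, was 1 with quantile normalisation, 1 with array weights, 1 with the replicate block, 1 with the pancreas marker mean as a covariate and 0 without the 4 arrays with pancreas transcripts, which leaves 1 wild-type vehicle array; leaving out 1 array at a time gave 0 to 3. The count in the knockout, 0 with all arrays, was 1 (Ugt2b35) with array weights, with the covariate and with the 2 groups alone, and 0 to 1 over single arrays left out. The averaged drug effect, 3 with all arrays, gave 1 without the pancreas arrays, 1 with the covariate and 0 to 5 over single arrays. The genotype counts under dexamethasone and averaged gave 0 to 1 over single arrays, and those under vehicle and for the difference of effects 0 throughout. Over all genes, leaving out the pancreas arrays took the wild-type count from 2064 to 559 and the averaged count from 3085 to 1695; fewer arrays were fitted. Centring each array on its median brought Gstt2 past the threshold.

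The values gave no sign that the replicate numbers paired the animals. Deviations of the same number in different groups correlated at -0.54 to 0.36 over 18 pairs, with 3 above 0.1. Those of different numbers correlated at -0.35 to 0.40 over 36 pairs, with 11 above 0.1. Of 12 arrays 3 correlated best with their own number. With the replicate block 2018 genes passed in wild-type livers against 2064, Gstt1 was lost (adjusted p = 0.0666) and Ugt2b35 was lost in the averaged effect (adjusted p = 0.0569). Precision was limited by 3 arrays per group, and Gstt4, Gsto2 and Mgst2 lay too close to the 20th percentile for a difference to be measured.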

Other observations

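Markers of the other cells of the liver gave the following counts in the drug effect averaged over genotypes, beside 17.2% of all genes called. Of 14 Kupffer cell markers 1 rose, Cd163 (1.28 ± 0.20), a scavenger receptor, and 6 fell, among them Mpeg1 (-0.99 ± 0.20), Csf1r (-0.66 ± 0.14) and Cd5l (-0.77 ± 0.20). Of 12 endothelial markers 1 rose, Lyve1 (2.21 ± 0.12), and 6 fell, among them Kdr (-1.14 ± 0.10), Tek (-0.72 ± 0.12) and Clec4g (-0.54 ± 0.09). Of 12 stellate cell markers 1 rose (Hand2, 0.44 ± 0.07) and 2 fell (Pdgfrb, -0.81 ± 0.12, and Col3a1, -0.43 ± 0.09). Of 9 lymphocyte markers 4 fell, among them the B cell genes Cd79b (-0.41 ± 0.08) and Ms4a1 (-0.26 ± 0.06). Of 9 hepatocyte markers 1 rose, the transcription factor gene Hnf4a (0.39 ± 0.08). None of the 8 bile duct markers, the 8 erythroid and neutrophil markers or the 17 exocrine pancreas markers passed, the last with a median of -2.15 that followed the 4 arrays named in the report. The part of any of these cells in the transferase values was not tested.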
